A study of Mus musculus with 20 samples.

Results

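The cytochrome P450 genes of families 1 to 4 were described in the livers of 20 male mice, 1 array per mouse. The set held every gene of the array's annotation whose only symbol began with Cyp1, Cyp2, Cyp3 or Cyp4 followed by a letter, which gave 56 genes out of 18193 with a named probe set: 3 in family 1, 35 in family 2, 5 in family 3 and 13 in family 4. Membership follows from the gene's name alone, though the families were taken up with earlier results of these data known. Wild type mice and mcad-/- mice, in which Acadm, the gene of medium-chain acyl-CoA dehydrogenase, is disrupted, each received either vehicle or LPS, the bacterial endotoxin, at 100 µg per 20 g of body weight. All 4 groups of 5 mice were fasted for 12 h after the injection, were 50 to 60 days old and were of a BL6/SV129 mixed background. Every group was therefore a fasted one, and nothing in the labels states that the genotypes came from the same litters, so differences carried by the mixed background and the Acadm allele itself cannot be told apart here.

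P450 enzymes are haem proteins of the endoplasmic reticulum that oxidise small molecules with electrons from P450 reductase and cytochrome b5. Family 1 enzymes oxidise planar aromatic compounds and are induced through the aryl hydrocarbon receptor, family 2 and 3 enzymes handle most drugs and steroids and are induced through the nuclear receptors CAR and PXR, and family 4 enzymes hydroxylate the ends of fatty acids and eicosanoids, with the Cyp4a genes as classic PPARα targets. In liver most of them are made by hepatocytes, many in the zone around the central vein, and endotoxin and the cytokines it elicits are well known to lower many of their mRNAs.

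Levels are given in linear intensity units of a probe set as deposited, and differences as log2 differences between group means with their standard error (SE). Levels of different genes are not compared, since each probe set has its own brightness. Tests were limited to the 8774 genes with more than 16 units on 5 or more arrays, and a change was called when the adjusted p of limma, a linear model fitted across all genes, was below 0.05. Of the 56 members 36 were tested (1, 24, 3 and 8 in families 1 to 4), 29 exceeded 16 units on all 20 arrays, and 16 stayed below 16 units on every array. Of the tested members Cyp2c37, Cyp2c38, Cyp2j9 and Cyp2u1 passed only through the vehicle mice, so that a fall with LPS was partly built into their being tested. Cyp2j9 exceeded 16 units only in mcad-/- vehicle mice, so its higher level in that group was built in as well.

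Between 30.3% and 32.4% of probe sets exceeded 16 units on each array. Acadm matched the labels, with 3106 to 4022 units in wild type vehicle mice against 9.03 to 80.2 in mcad-/- vehicle mice, and 1450 to 2375 against 14.3 to 218 with LPS (two-sided exact permutation p = 0.00794 for each, the smallest that 5 against 5 mice allow). Liver markers were present, since all 8 measured hepatocyte markers were tested, and none of them differed between genotypes. All 6 measured cholangiocyte markers and all 8 measured T, B and NK cell markers stayed below 16 units. Wild type vehicle mouse 3 and wild type LPS mouse 4 stood apart in the 3' to 5' ratio of the actin control, at 3.18 and 3.69 on the log2 scale against 1.35 to 2.34 in the other 18 mice. Without these 2 mice 3 calls were lost and 3 gained, which are given with the genes concerned.

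Upstream sequences are shown for the 6 members on which the contrasts below turn: Cyp2b10, the member with the largest difference between genotypes and the only tested member that rose with LPS in both; Cyp2d9, Cyp2d10 and Cyp2d40, neighbouring genes of which only the last was not called with LPS; and Cyp3a11 and Cyp3a25, neighbours that fell by very different amounts. Each is the 250 bases before the start site, 5' to 3' on the gene's strand, from RefSeq on the GRCm38.p6 build. They lie at chr7:25897408-25897657 (plus strand), chr15:82452127-82452376 (plus), chr15:82407195-82407444 (minus), chr15:82764123-82764372 (minus), chr5:145879855-145880104 (minus) and chr5:146009619-146009868 (minus, the first of 2 windows listed). Capitals mark any match, on either strand, to TATAAA, to TTGCNNAA (C/EBP type), to a direct repeat of AGGNCA with 1 base between the copies (DR1 type, bound by HNF4 and other nuclear receptors) or to CAAAGTCCA (HNF4 type), none of which overlapped.
Cyp2b10: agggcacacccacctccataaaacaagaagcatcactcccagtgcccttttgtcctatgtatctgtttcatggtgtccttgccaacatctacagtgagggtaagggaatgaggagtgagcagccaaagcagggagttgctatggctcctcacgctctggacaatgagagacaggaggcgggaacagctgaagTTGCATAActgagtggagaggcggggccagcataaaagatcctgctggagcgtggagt
Cyp2d9: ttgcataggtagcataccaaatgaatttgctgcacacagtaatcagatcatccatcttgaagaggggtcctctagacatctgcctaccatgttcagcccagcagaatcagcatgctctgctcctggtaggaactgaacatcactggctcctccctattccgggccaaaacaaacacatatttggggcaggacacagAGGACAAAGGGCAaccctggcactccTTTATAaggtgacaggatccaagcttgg
Cyp2d10: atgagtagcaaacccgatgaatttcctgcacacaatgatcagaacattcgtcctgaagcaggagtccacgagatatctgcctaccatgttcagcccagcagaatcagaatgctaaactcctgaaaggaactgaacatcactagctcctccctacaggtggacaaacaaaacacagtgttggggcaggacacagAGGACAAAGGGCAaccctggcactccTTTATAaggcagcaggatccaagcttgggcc
Cyp2d40: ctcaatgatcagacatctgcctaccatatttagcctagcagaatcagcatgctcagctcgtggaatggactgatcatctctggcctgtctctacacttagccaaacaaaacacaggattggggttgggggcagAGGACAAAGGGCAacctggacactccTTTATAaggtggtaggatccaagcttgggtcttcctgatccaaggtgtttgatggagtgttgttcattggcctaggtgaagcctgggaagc
Cyp3a11: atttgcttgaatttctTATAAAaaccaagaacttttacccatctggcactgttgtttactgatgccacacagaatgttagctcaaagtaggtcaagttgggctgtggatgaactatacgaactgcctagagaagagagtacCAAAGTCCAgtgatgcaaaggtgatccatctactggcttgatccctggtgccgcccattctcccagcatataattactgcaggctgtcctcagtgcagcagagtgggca
Cyp3a25: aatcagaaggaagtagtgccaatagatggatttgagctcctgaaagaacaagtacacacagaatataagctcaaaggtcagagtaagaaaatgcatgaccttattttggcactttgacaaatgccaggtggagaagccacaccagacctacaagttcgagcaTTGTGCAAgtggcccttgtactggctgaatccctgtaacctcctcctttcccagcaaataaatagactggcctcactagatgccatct

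In Cyp2d9 the direct repeat lay at -54 to -42 from the start site, in Cyp2d10 at -57 to -45 and in Cyp2d40 at -117 to -105, each followed by a TATAAA match on the opposite strand, at -28, -31 and -91 at its upstream end. The Cyp2d9 and Cyp2d10 windows were identical at 82.7% of aligned columns, against 46.4% and 48.1% for Cyp2d40 with each of them. Whole windows were aligned at a cost for gaps, and the matches of Cyp2d40 lay further upstream of its start site. Like stretches of Cyp2d40 were therefore not lined up with those of the other genes, so its lower shares do not measure how far its sequence differs. The Cyp3a11 and Cyp3a25 windows were identical at 52.1%, and Cyp3a11 alone of this pair held CAAAGTCCA, at -109 to -101, whereas Cyp3a25 held a C/EBP type match at -88 to -81. In Cyp2b10 a C/EBP type match lay at -58 to -51. RefSeq held windows for 43 of the 56 members. TATAAA was in those of 17 members, against 12.4% of all 32841 windows, CAAAGTCCA in 5 members against 0.384%, the direct repeat in 3 members against 0.338% and TTGCNNAA in 8 members against 9.57%. GCGTG, the core read by the aryl hydrocarbon receptor and not capitalised, was in 10 members against 28.2%. A member was counted if any of its windows matched, whereas the shares are of single windows, so the 2 measures are not alike. These are matches of letters, and members of a gene cluster share sequence, so their windows are not independent.

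With LPS most of the P450 genes fell in both genotypes, in every family that was tested. Hepatocyte markers moved the same way to a lesser count, since 3 of 8 fell and 1 rose in wild type and 5 fell and 1 rose in mcad-/- mice, with summed levels of 106700 to 113100 units in wild type vehicle mice, 98890 to 106200 in wild type LPS mice, 105000 to 121100 in mcad-/- vehicle mice and 99340 to 105300 in mcad-/- LPS mice. Of 9 Kupffer markers 6 fell and 1 rose in wild type and 8 fell and 1 rose in mcad-/- mice. Of 11 endothelial markers 2 fell and 5 rose in wild type, whereas 7 fell and 2 rose in mcad-/- mice. The part of these cells in the P450 levels was not tested. In wild type mice 30 of the 36 tested members fell and 2 rose, beside 24% and 40% of all 8774 genes. Among mcad-/- mice 29 fell and 1 rose, beside 27.6% and 38.1%. These counts include the 4 members that passed the filter only through vehicle mice. Of the 29 members above 16 units on all 20 arrays 25 fell and 1 rose in wild type mice. In mcad-/- mice 24 of these 29 fell and 0 rose. The median change was -0.97 in wild type and -1.12 in mcad-/- mice on the log2 scale, while the median over all genes tested was 0.18 and 0.14. Where a group was wholly under 16 units a fold is a lower bound, and with those members at their bound the medians were -0.91 and -1.06.

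Many of the falls were large and left no overlap between the groups. In wild type mice 17 members fell at least 2-fold (16 with bounded folds at their bound), beside 8.81% of genes, and in 23 every LPS mouse was below every vehicle mouse, beside 17.1%. The mcad-/- mice had 20 members that fell at least 2-fold (19 at the bound), beside 11.3%, and 23 fell with no overlap, beside 21.4%. Among the 29 members above 16 units on all arrays 14 fell at least 2-fold in wild type and 17 in mcad-/- mice. Of the same 29 members 20 fell with no overlap in each genotype. The LPS comparisons of the genotypes share no mice, and 28 of 36 members (77.8%) fell in both, beside 1799 of all 8774 genes (20.5%). By family these were the 1 tested member of family 1, 19 of 24 in family 2, 2 of 3 in family 3 and 6 of 8 in family 4. Across the 36 members the changes in the genotypes correlated at r = 0.89 (Spearman's rho 0.89), a description across genes, which are not replicates, beside r = 0.90 across all genes tested. The median log2 difference of the 36 members from the wild type vehicle mean lay between -0.98 and -0.83 in single wild type LPS mice and between -1.26 and -0.91 in mcad-/- LPS mice, against -0.14 to 0.10 in all vehicle mice.

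**Figure D1:**
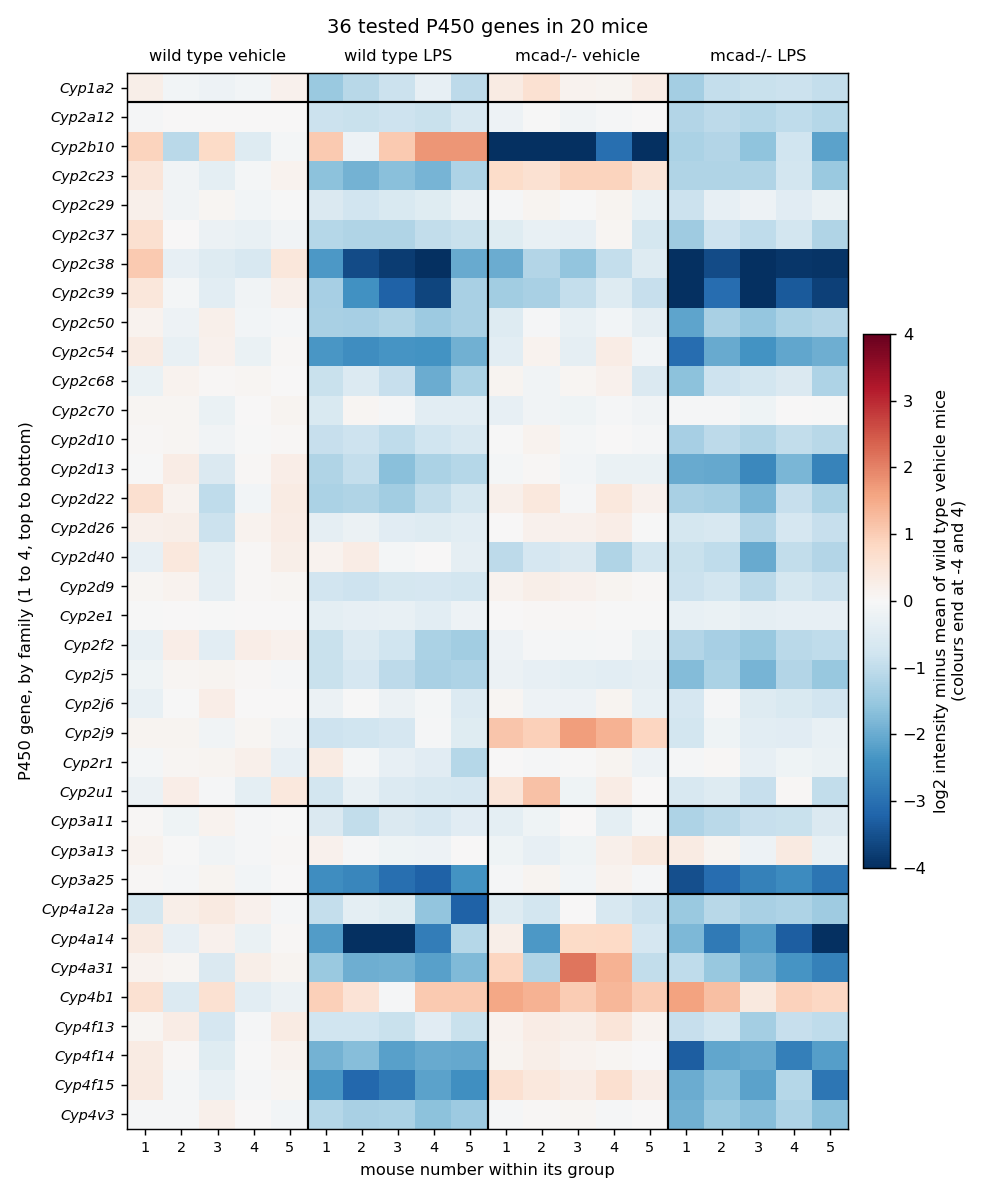
Log2 intensity of the 36 tested P450 genes (rows, families 1 to 4 from top to bottom, divided by lines) in each of the 20 mice (columns), minus the mean of the 5 wild type vehicle mice. Blue is lower and red higher, and most rows are blue in both LPS groups while Cyp2b10 is dark blue only in mcad-/- vehicle mice.

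Family 1 was represented by Cyp1a2, the caffeine-oxidising enzyme of the pericentral zone. It read 3886, 3065, 2856, 3088 and 3708 units in wild type vehicle mice and 1172, 1514, 1834, 2610 and 1582 with LPS. The mcad-/- mice read 4120, 4987, 3614, 3520 and 4059 with vehicle and 1287, 1721, 1779, 1815 and 1686 with LPS. Every LPS mouse was below every vehicle mouse of its genotype, and the change was -0.97 ± 0.17 (SE, n = 5 per group, limma adjusted p = 4.57e-05) and -1.29 ± 0.17 (limma adjusted p = 1.42e-06). The genotypes did not pass the test for it with either injection. Cyp1a1 and Cyp1b1, the other aryl hydrocarbon receptor targets of the family, stayed between 4.06 and 8.29 units on all arrays and were not tested.

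In family 2 the Cyp2c genes, which hydroxylate drugs and arachidonic acid, were the subfamily with most members. All 9 tested Cyp2c members fell in wild type mice and 8 of 9 in mcad-/- mice. Cyp2c38 read 357, 138, 122, 113 and 239 units in wild type vehicle mice and 35.1, 14.6, 12.4, 10.7 and 42.8 with LPS, 8.89-fold lower (-3.15 ± 0.41, limma adjusted p = 1.40e-06). In mcad-/- mice it went from 44.5, 76.7, 57.8, 89.9 and 122.5 units to 5.99, 14.47, 6.43, 11.7 and 11.5, at least 4.61-fold lower since all 5 LPS mice were under 16 units. Its groups did not overlap in either genotype. Only 2 of the 5 wild type LPS mice exceeded 16 units, so its 8.89-fold rests partly on values under 16 units. Cyp2c38 passed the filter only through vehicle mice, so its fall was partly built in and this p is no support for it. Cyp2c39 of the same gene cluster, a retinoic acid hydroxylase, fell from 914 to 1687 units to a range of 95.7 to 491 in wild type mice (5.26-fold) and from 467 to 857 to a range of 39.6 to 148 in mcad-/- mice (7.62-fold). Cyp2c54 fell 4.90-fold and 4.57-fold and Cyp2c50 2.48-fold and 2.33-fold, without overlap.

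Other members of the same gene cluster fell by less. Cyp2c68 fell 2.18-fold and 1.90-fold, and Cyp2c37, a CAR-responsive enzyme that was wholly under 16 units with LPS, at least 1.51-fold and at least 1.19-fold. Cyp2c29, also responsive to CAR, fell 1.46-fold in wild type and 1.33-fold in mcad-/- mice, with levels of 5151 to 7000 units in vehicle mice and 3398 to 5282 with LPS. Cyp2c70, the enzyme that makes mouse muricholic acids, read -0.29 ± 0.12 (limma adjusted p = 0.0393) in wild type mice, a call lost in 11 of 32 alternatives, and 0.11 ± 0.12 (limma adjusted p = 0.413) in mcad-/- mice. Cyp2c23, an arachidonic acid epoxygenase that is not among these neighbours, fell 3.15-fold and 3.68-fold.

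The Cyp2d genes, relatives of the human debrisoquine hydroxylase, fell in 5 of 6 tested members in both genotypes. Cyp2d9, a steroid hydroxylase known as male-specific, went from 4524 to 6400 units to 3256 to 3674 in wild type mice (1.67-fold) and from 5958 to 6843 to 2750 to 3542 in mcad-/- mice (1.98-fold). Cyp2d10 fell 1.79-fold and 2.21-fold, Cyp2d22 2.15-fold and 2.96-fold, and Cyp2d13 2.37-fold and 4.28-fold. Cyp2d26 fell 1.90-fold in mcad-/- mice, while its change in wild type mice (-0.40 ± 0.17, limma adjusted p = 0.0446) kept its direction but lost its call in 18 of 32 alternatives. The exception was Cyp2d40, whose window above carries the same direct repeat as those of Cyp2d9 and Cyp2d10. It read 47.3, 79.2, 45.1, 61.1 and 69.0 units in wild type vehicle mice and 65.7, 73.2, 56.3, 59.1 and 46.3 with LPS, overlapping groups with a change of 0.01 ± 0.20 (limma adjusted p = 0.966). In mcad-/- mice the change was -0.38 ± 0.20 (limma adjusted p = 0.107), which passed after quantile normalization (-0.52, limma adjusted p = 0.0272).

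Cyp2e1, the ethanol and acetone oxidising enzyme, changed by a small amount with little spread. It read 13820, 14080, 13700, 14100 and 14260 units in wild type vehicle mice and 10640, 11030, 11270, 10490 and 12050 with LPS. The mcad-/- mice read 14100, 14400, 14370, 13860 and 13890 with vehicle and 11340, 11620, 10830, 11230 and 11140 with LPS. The groups did not overlap, and the fall was 1.26-fold in each genotype (-0.34 ± 0.07 and -0.33 ± 0.07, limma adjusted p = 0.000274 and 0.000304). Cyp2a12, a testosterone 7α-hydroxylase, fell 1.78-fold and 2.04-fold, and Cyp2f2, a naphthalene-oxidising enzyme and a known periportal marker, fell 1.97-fold and 2.14-fold.

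Among the Cyp2j epoxygenases Cyp2j5 fell 2.04-fold and 2.24-fold, without overlap. Cyp2j6 did not pass in wild type mice by its brightest probe set (-0.22 ± 0.14, limma adjusted p = 0.181), whereas its other probe set, adjusted over all probe sets, read -0.92 ± 0.21 (limma adjusted p = 0.000778). Cyp2j6 fell 1.33-fold in mcad-/- mice (-0.41 ± 0.14, limma adjusted p = 0.0144). Cyp2u1, a fatty acid hydroxylase, read 10.1 to 17.8 units in wild type vehicle mice and 8.02 to 10.9 with LPS, close to the filter (-0.58 ± 0.22, limma adjusted p = 0.0307). Without the 2 mice of high actin ratio that call was lost (-0.57 ± 0.27, limma adjusted p = 0.0684). Its mcad-/- values fell from 11.9 to 29.8 units to 6.75 to 13.8, at least 1.07-fold (limma adjusted p = 0.000975). Cyp2u1 passed the filter only through vehicle mice, so these p values are no support for its fall. Cyp2r1, the vitamin D 25-hydroxylase, overlapped between vehicle and LPS in both genotypes (-0.33 ± 0.18 and -0.13 ± 0.18) and passed in neither.

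Family 3, the Cyp3a steroid and drug oxidases, split into 3 sizes of response. Cyp3a25 read 4943, 4641, 5234, 4421 and 4801 units in wild type vehicle mice and 850, 785, 592, 505 and 923 with LPS. In mcad-/- mice it went from 4631, 5172, 4472, 5346 and 4659 units to 421, 578, 743, 838 and 636. No LPS mouse came near a vehicle mouse, and the falls were 6.74-fold (-2.75 ± 0.17, limma adjusted p = 4.88e-11) and 7.74-fold (-2.95 ± 0.17, limma adjusted p = 1.58e-11). Cyp3a11, the main PXR target of mouse liver, fell 1.58-fold, from 6911 to 8583 units to 3877 to 5607, in wild type mice and 1.67-fold, from 5832 to 7831 to 3278 to 5117, in mcad-/- mice, without overlap. Cyp3a13 read 2446 to 4003 units in all 20 mice, with changes of -0.05 ± 0.15 and 0.08 ± 0.15 (limma adjusted p = 0.80 and 0.66), and each change plus or minus 2 SE stayed within 0.37 of 0 on the log2 scale.

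In family 4 the Cyp4a genes, ω-hydroxylases of medium and long fatty acids, fell by large but scattered amounts. Cyp4a14 read 3825, 2374, 3333, 2458 and 3066 units in wild type vehicle mice and 628, 76.8, 184, 439 and 1333 with LPS, 8.48-fold lower (-3.08 ± 0.69, limma adjusted p = 0.000665). The mcad-/- mice read 3454, 600, 5049, 5114 and 1867 units with vehicle and 853, 413, 644, 304 and 89.6 with LPS, 6.95-fold lower (-2.80 ± 0.69, limma adjusted p = 0.00153). The wild type groups did not overlap, whereas mcad-/- vehicle mouse 2 lay among the LPS mice. Cyp4a31 fell 3.61-fold and 5.09-fold, and its mcad-/- vehicle mice spread from 31.6 to 319 units. Only 3 of its 5 mcad-/- LPS mice exceeded 16 units, so the 5.09-fold rests partly on values under 16 units. Cyp4a12a, a male-predominant arachidonic acid hydroxylase, fell 2.51-fold in wild type mice, with 343 units in LPS mouse 5 against 1075 to 2445 in the others. In mcad-/- mice its LPS values of 1157 to 1473 units were all below the vehicle values of 1766 to 3250, but the adjusted p of limma was 0.0778. These 3 genes had within-group SDs of up to 1.60 log2 units, against a median SD of 0.19 to 0.29 over the 36 members in the 4 groups.

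The Cyp4f genes, which inactivate leukotriene B4 and related eicosanoids, all fell in both genotypes among the 3 tested. Cyp4f15 went from 781, 587, 496, 598 and 642 units to 123, 69.2, 87.2, 138 and 112 in wild type mice (5.97-fold) and fell 5.28-fold in mcad-/- mice. Cyp4f14, the main hepatic leukotriene B4 hydroxylase, fell 3.90-fold and 6.02-fold, and Cyp4f13 1.70-fold and 2.37-fold. Cyp4v3, a fatty acid hydroxylase whose human relative is mutated in Bietti crystalline dystrophy, fell 2.57-fold and 3.04-fold. Cyp4b1 rose in wild type mice only by a call that was lost in 7 of 32 alternatives (0.71 ± 0.26, limma adjusted p = 0.0223) and read -0.26 ± 0.26 (limma adjusted p = 0.386) in mcad-/- mice.

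**Figure D2:**
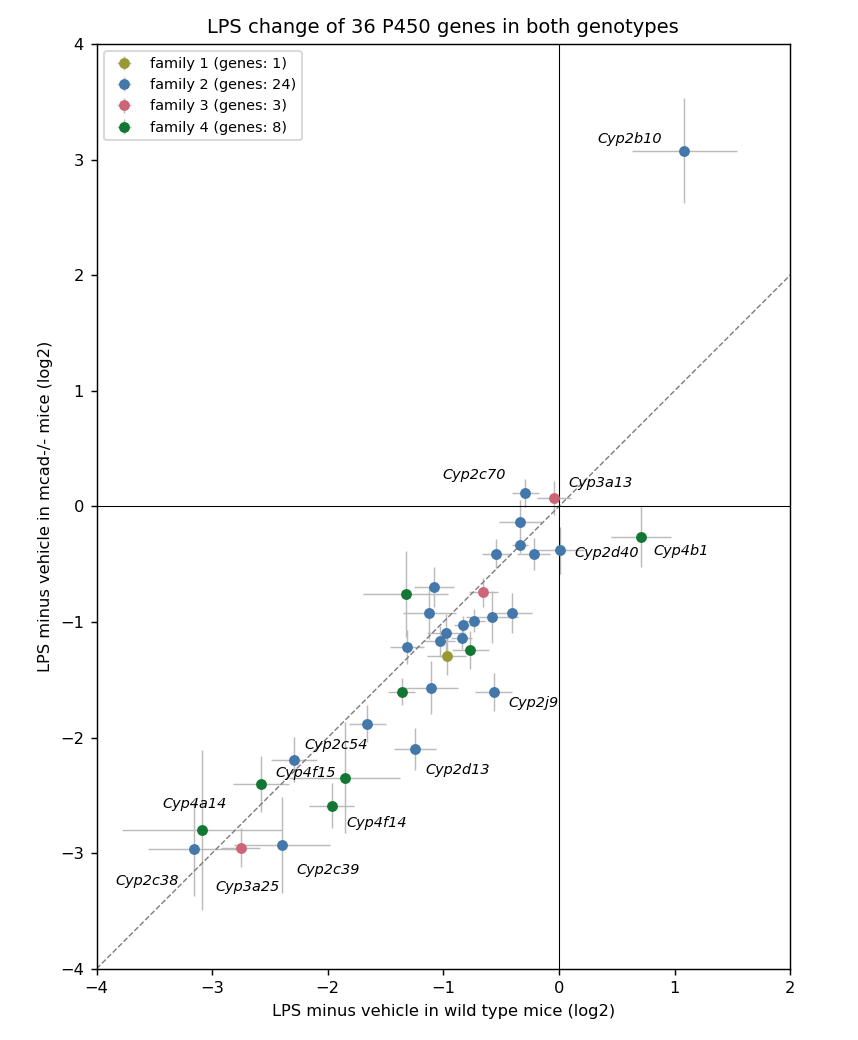
Log2 change with LPS in wild type mice (horizontal axis) and in mcad-/- mice (vertical axis) for the 36 tested members, coloured by family, with bars of 1 SE, a dashed line of equal change and names of selected genes. Most members lie below 0 on both axes and near the dashed line, and Cyp2b10 lies apart at 1.09 and 3.08.

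Between the genotypes few members differed under vehicle, and the largest difference was that of Cyp2b10. Of the 36 tested members 3 were higher in mcad-/- mice, beside 9.81% of all genes, and 3 were lower, beside 6.39%. The groups did not overlap for the 3 higher members, beside 6.1% of genes higher without overlap (1 of the 3, Cyp2j9, was tested only because it was high in that group), and for 2 of the lower ones, beside 4.41%. The median difference was -0.02 over the members and 0.04 over all genes. Cyp2b10, the phenobarbital-inducible enzyme that is the standard CAR target of mouse liver, read 399, 101, 368, 150 and 204 units in wild type vehicle mice. In mcad-/- vehicle mice it read 9.44, 10.5, 6.74, 26.2 and 4.68, so that only 1 of the 5 exceeded 16 units and no mouse of one genotype reached the other. The geometric means were 214.5 and 9.60 units, a fitted 22.3-fold, or 12.1-fold with the 4 mice under 16 units set to 16 (-4.48 ± 0.45, limma adjusted p = 4.41e-07), and the 2 other probe sets of the gene gave -4.29 and -3.68.

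Cyp2b10 was also the only tested member that rose with LPS in both genotypes. Wild type mice read 447, 186, 443, 725 and 733 units with LPS, which overlapped their vehicle values (1.09 ± 0.45, limma adjusted p = 0.0417). That call was lost in 9 of 32 alternatives, over which its adjusted p ranged from 0.00599 to 0.128, and was 0.0624 without the 2 mice of high actin ratio. The mcad-/- LPS mice read 88.5, 94.4, 70.0, 124 and 48.5 units, each above every mcad-/- vehicle mouse, a fitted 8.45-fold, or 4.59-fold with the vehicle mice under 16 units set to 16 (3.08 ± 0.45, limma adjusted p = 6.80e-06). The genotypes still did not overlap with LPS, and mcad-/- mice were 5.61-fold lower (-2.49 ± 0.45, limma adjusted p = 0.000562). The fitted LPS response, which rests on the same dim vehicle mice, was larger by 1.99 ± 0.64 log2 units in mcad-/- mice, which did not pass the test (limma adjusted p = 0.0825), except without mcad-/- vehicle mouse 4 (limma adjusted p = 0.0333). Of the other 3 Cyp2b genes on the array Cyp2b13 and Cyp2b19 stayed under 16 units in all mice, and Cyp2b9 exceeded it in 2 wild type vehicle mice, at 92.8 and 20.8.

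Cyp2d40 was lower in mcad-/- mice with both injections. With vehicle it read 28.6, 37.4, 39.5, 25.7 and 35.7 units in mcad-/- mice, all under the wild type range of 45.1 to 79.2 (-0.84 ± 0.20, limma adjusted p = 0.00718). With LPS it read 31.8, 28.9, 14.6, 29.7 and 26.2 against 46.3 to 73.2, 2.35-fold lower (-1.23 ± 0.20, limma adjusted p = 0.000215). All 4 tested neighbours were also below wild type in the fit with LPS, of which Cyp2d10 passed (-0.30 ± 0.09, limma adjusted p = 0.0276) and Cyp2d9 and Cyp2d22 did not. Cyp2d26 did not overlap there (-0.41 ± 0.17, limma adjusted p = 0.0934) and passed without the 2 mice of high actin ratio (-0.44 ± 0.11, limma adjusted p = 0.00653). With vehicle none of the 4 passed, at limma adjusted p of 0.381 to 0.984. Cyp2c38 was 2.37-fold lower with vehicle (-1.24 ± 0.41, limma adjusted p = 0.0415), with ranges that overlapped and a call lost in 8 of 32 alternatives. With LPS it passed only without the 2 mice of high actin ratio, without wild type LPS mouse 4 or with the replicate block, among the alternatives run (-1.27 ± 0.42, limma adjusted p = 0.0388 without the 2 mice).

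The members that were higher in mcad-/- vehicle mice were Cyp4b1, Cyp2j9 and Cyp2c23, and for each of them no mouse of one genotype overlapped the other. Cyp4b1, which bioactivates furans and is best known from lung, read 67.1, 30.2, 67.1, 32.9 and 37.1 units in wild type and 128, 115, 88.3, 109 and 89.0 in mcad-/- mice (2.38-fold, 1.25 ± 0.26, limma adjusted p = 0.00216). Cyp2j9, an epoxygenase best known from brain, read 11.7, 11.6, 9.78, 11.4 and 9.91 units in wild type and 23.4, 20.8, 34.3, 28.5 and 19.8 in mcad-/- mice, at least 1.55-fold higher because all wild type mice were under 16 units (limma adjusted p = 2.56e-05). That group alone brought it past the filter, so this p is no support for the difference. Cyp2c23 read 2670, 1736, 1477, 1803 and 2095 units in wild type and 3182, 2899, 3528, 3526 and 2729 in mcad-/- mice (1.65-fold, 0.72 ± 0.16, limma adjusted p = 0.00383). Its only probe set is named _s_at, a type that may read several transcripts. The alternative without probe sets named _x_at or _s_at therefore did not test Cyp2c23.

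Markers of other liver cells moved in the same direction in the same mice. Of the tested markers 10 of 11 sinusoidal endothelial, 6 of 9 Kupffer cell and 6 of 9 stellate cell genes were higher in mcad-/- vehicle mice. Of the 8 hepatocyte genes 0 were higher, and of all genes 9.81% were. The summed level of the 12 endothelial markers was 665 to 1519 units in wild type and 2135 to 3065 in mcad-/- vehicle mice, that of the 12 Kupffer markers 952 to 1744 and 1716 to 2453, and that of the 11 stellate markers 1547 to 2647 and 3030 to 3351. Pecam1, Folr2, Col1a1 and Des, which are defining markers of these cells, were under 16 units on all arrays. With LPS the endothelial sums were 982 to 1571 and 818 to 1414. The part of these cells in the levels of Cyp4b1, Cyp2j9 and Cyp2c23 was not tested, and in whole liver fewer cells of a type and less RNA per cell cannot be told apart.

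**Figure D3:**
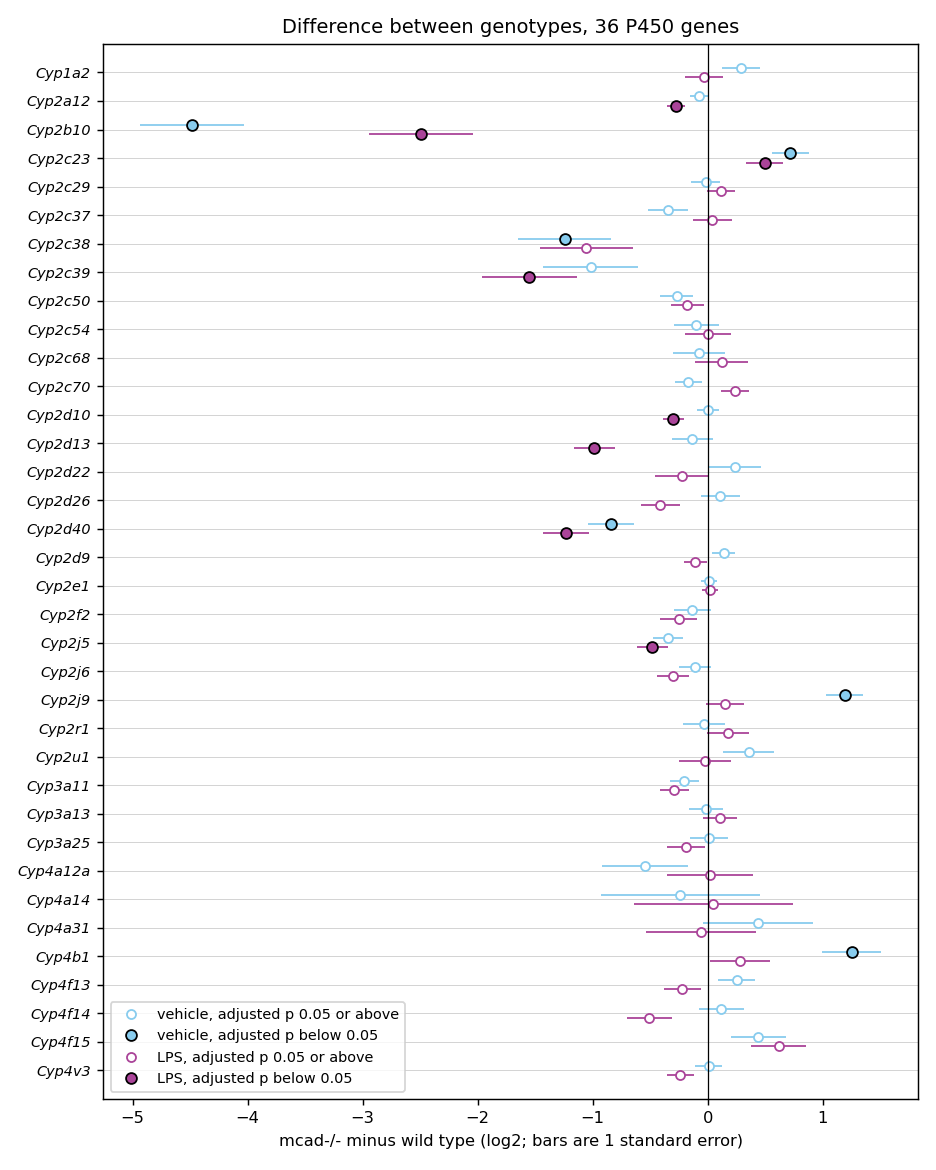
Difference between mcad-/- and wild type mice (log2, horizontal axis) for each of the 36 tested members with vehicle (light blue) and with LPS (purple), bars of 1 SE, filled where the adjusted p was below 0.05. Most points lie near 0, Cyp2b10 lies at -4.48 and -2.49, and Cyp2d40 is filled on the lower side with both injections.

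With LPS most of the members called between the genotypes were lower in mcad-/- mice. Of the 36 tested members 7 were lower, beside 11.8% of all genes, and 1 was higher, beside 8.75%. The median difference was -0.14 over the members and -0.03 over all genes. Besides Cyp2b10 and Cyp2d40 the lower members were Cyp2c39, Cyp2d13, Cyp2j5, Cyp2d10 and Cyp2a12. Cyp2d13 read 172, 203, 125, 162 and 180 units in wild type and 97.3, 94.6, 65.4, 112 and 61.9 in mcad-/- LPS mice, which did not overlap (1.98-fold, -0.99 ± 0.18, limma adjusted p = 0.000562). Cyp2c39 was 2.93-fold lower (-1.55 ± 0.41, limma adjusted p = 0.0112), with 39.6 to 148 units against 95.7 to 491.

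The remaining differences with LPS were small. Cyp2a12 was 1.21-fold lower, from 2017 to 2411 units in wild type to 1687 to 1864 in mcad-/- mice. Cyp2d10 was 1.23-fold lower, a call lost in 6 of 32 alternatives. Cyp2j5 was 1.39-fold lower by its brightest probe set (limma adjusted p = 0.0146), whereas its other probe set, adjusted over all probe sets, did not pass (-0.15 ± 0.21, limma adjusted p = 0.679). Cyp2c23 was the member that was higher (1.41-fold, limma adjusted p = 0.033), a call lost in 10 of 31 alternatives, among them without the 2 mice of high actin ratio (0.44 ± 0.16, limma adjusted p = 0.0549). Without those mice Cyp4f15 passed as higher (0.73 ± 0.25, limma adjusted p = 0.0485). At a fold of at least 1.5 the calls in this comparison dropped from 8 to 4. The genotype comparisons with each injection share no mice, and they had 3 of 36 members (8.33%) called in the same direction in both, near the 6.44% of all genes, namely Cyp2b10 and Cyp2d40 lower and Cyp2c23 higher.

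The LPS response itself passed the test between the genotypes for 1 member, Cyp2j9, beside 4.11% of all genes in either direction and 2.76% in the lower direction. In mcad-/- mice Cyp2j9 went from the raised vehicle values above to 6.56, 9.63, 8.02, 7.95 and 8.92 units with LPS, at least 1.55-fold lower, and in wild type mice to 6.07, 6.28, 6.87, 10.6 and 7.69. The fitted response was lower by 1.04 ± 0.23 log2 units in mcad-/- mice (limma adjusted p = 0.0126), but 3 of its 4 groups lay wholly under 16 units and it was tested only because of the group in which it was high, so the call was built in. The median of this difference was -0.20 over the members and -0.07 over all genes. Cyp2d13 came next to it, with a fall of 4.28-fold against 2.37-fold (-0.85 ± 0.25, limma adjusted p = 0.0601), and passed in 5 of 31 alternatives. Of the 28 members that fell in both genotypes 19 (67.9%) had the larger fitted fall in mcad-/- mice, beside 64.6% of all genes that fell in both. The 28 include Cyp2c37, Cyp2c38, Cyp2j9 and Cyp2u1, whose falls in mcad-/- mice are bounds.

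**Figure D4:**
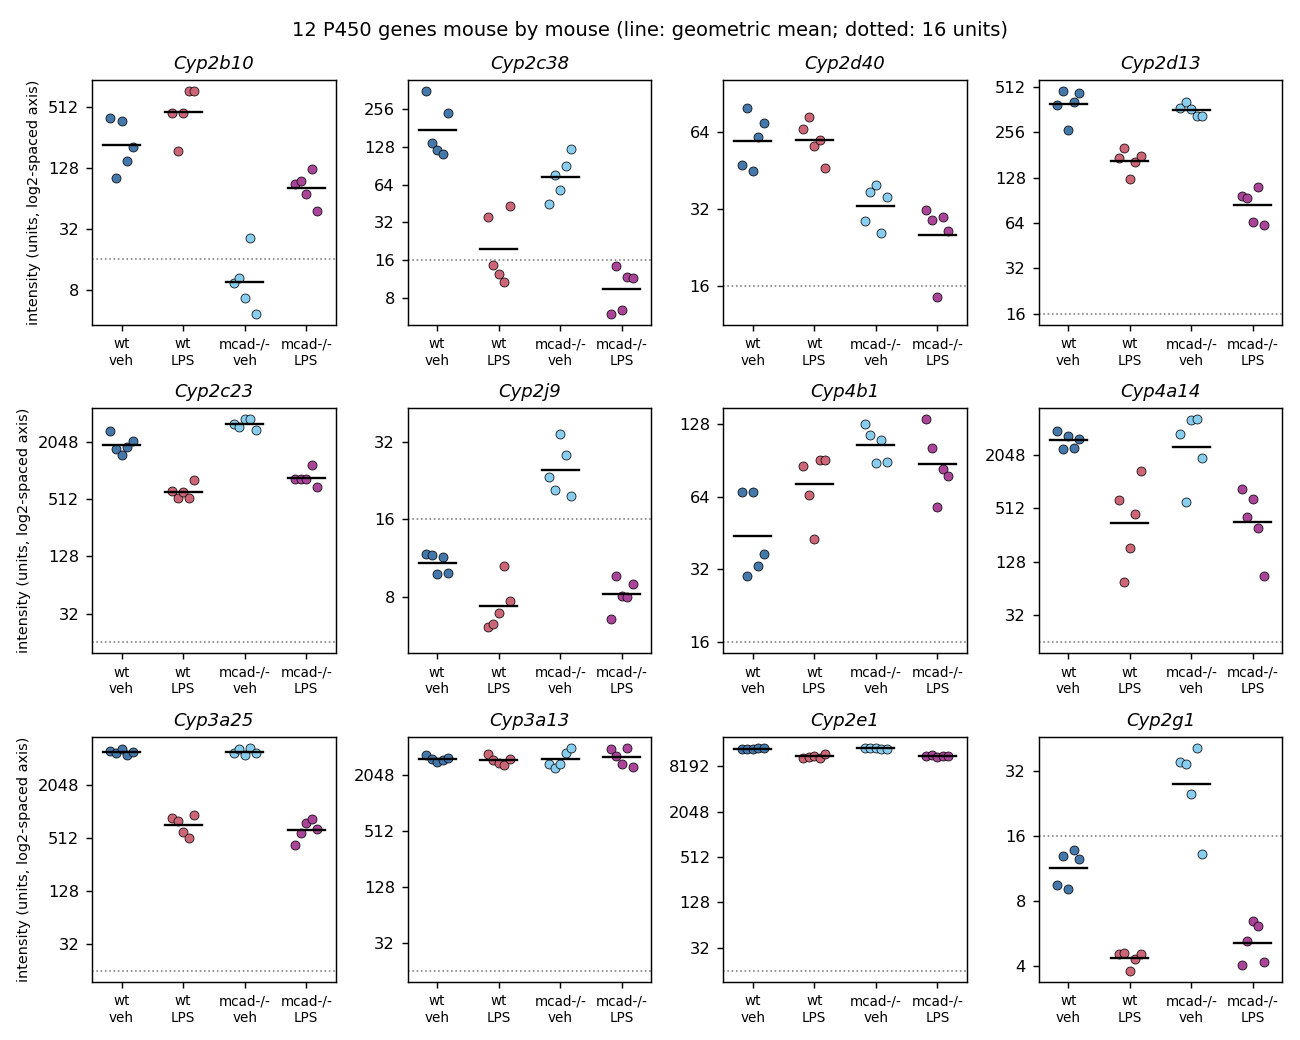
Intensity in units (vertical axis, log2-spaced and different for each panel) of 12 P450 genes in the 4 groups, 1 point per mouse, with a line at the geometric mean of each group of 5 and a dotted line at 16 units. Cyp2b10 runs opposite to Cyp3a25 and Cyp2c38 with LPS, Cyp3a13 stays level, and in mcad-/- vehicle mice Cyp2j9 exceeds 16 units in 5 of 5 and Cyp2g1 in 4 of 5.

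Of the 20 members that were not tested, those mentioned here were chosen after their values were seen, and they get no test. Cyp2g1, best known from olfactory mucosa, was the member with the clearest pattern. It read 9.52, 12.9, 9.10, 13.8 and 12.6 units in wild type vehicle mice and 35.1, 34.6, 24.97, 41.0 and 13.2 in mcad-/- vehicle mice, 1.80-fold higher with mice under 16 units set to 16, and 1 mcad-/- mouse lay within the wild type range. With LPS it was 3.81 to 4.58 units in wild type and 4.03 to 6.43 in mcad-/- mice. Cyp4f16 stayed under 16 units on all arrays, where a level is not well measured, at 4.85 to 6.69 against 8.43 to 10.8 units in wild type and 5.22 to 7.15 against 11.6 to 13.2 in mcad-/- mice. The values with LPS were the higher ones and did not overlap those with vehicle, opposite to Cyp4f13, Cyp4f14 and Cyp4f15. Cyp4f18, the leukotriene hydroxylase of neutrophils, stayed between 3.55 and 5.49 units on all arrays. All 5 tested neutrophil markers rose with LPS in both genotypes, beside 40% of all genes in wild type and 38.1% in mcad-/- mice. The other 5 of the 10 measured neutrophil markers, Mpo, Elane, Csf3r, Cxcr2 and Camp, stayed under 16 units on all arrays.

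Genes of the proteins that serve P450 enzymes went both ways with LPS. Of 17 tested genes of electron transfer and haem supply 7 fell and 4 rose with LPS in wild type mice. In mcad-/- mice 8 fell and 2 rose. Of all genes 24% and 27.6% fell and 40% and 38.1% rose in these comparisons. Cyb5a, the cytochrome b5 that passes electrons to many P450 enzymes, fell by 1.12 and 1.44 on the log2 scale (limma adjusted p = 5.2e-09 and 1.25e-10). Fech, which inserts iron into haem, fell 2.38-fold and 2.82-fold, and Cyb5r3, a cytochrome b5 reductase, 1.96-fold and 2.81-fold. Alas1, the rate-limiting enzyme of haem synthesis, did not pass in any comparison, with LPS changes of 0.36 and 0.03. Between genotypes 1 rose and 2 fell with vehicle, beside 9.81% and 6.39% of all genes. With LPS 1 rose and 7 fell, beside 8.75% and 11.8%.

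Of 19 tested transcriptional regulators of P450 genes 7 fell and 2 rose with LPS in wild type mice, and 8 fell and 3 rose in mcad-/- mice. The shares of all genes were 24% and 27.6% for falls and 40% and 38.1% for rises. Nr1i3, the receptor CAR, changed by -2.35 in wild type and -4.43 in mcad-/- mice on the log2 scale (limma adjusted p = 0.00012 and 4.81e-08). Nr1i3 did not pass between genotypes with vehicle (0.04) and was lower in mcad-/- mice with LPS (-2.03, limma adjusted p = 0.0027). The arrays measure the mRNA of CAR and not its activity, and its part in the Cyp2b10 levels was not tested. Nr1i2, the receptor PXR, passed only in mcad-/- mice (-0.67 and -1.79). Ppara fell by 0.73 and 1.36, Ahr rose by 0.63 and 1.09, and Hnf4a, a master regulator of hepatocytes, read -0.06 and -0.07 and did not pass.

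Between genotypes 1 regulator was higher and 3 were lower with vehicle, beside 9.81% and 6.39% of all genes. With LPS 1 was higher and 4 were lower, beside 8.75% and 11.8%. Onecut1, a hepatocyte factor, and Nr0b2, the repressor SHP, were chosen after their values were seen. Onecut1 was lower in mcad-/- mice with both injections (-2.06 and -1.75). Nr0b2 was lower by a call with LPS (-3.14), and it was the single regulator whose LPS response differed between genotypes (-3.31, limma adjusted p = 0.0187).

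Genes that share inducers or zones with the P450 genes were counted beside them. Their LPS counts stand beside falls of 24% and 27.6% and rises of 40% and 38.1% of all genes in wild type and mcad-/- mice. Of 14 tested CAR and PXR targets outside the P450 families 9 fell and 0 rose with LPS in wild type mice, and 11 fell and 1 rose in mcad-/- mice. Of 7 tested P450 members known as such targets 5 fell and 1 rose in each genotype. Of 15 other PPARα targets 8 fell and 4 rose in wild type and 11 fell and 2 rose in mcad-/- mice, beside the tested PPARα-driven members Cyp4a14 and Cyp4a31, which fell in both. Of 9 aryl hydrocarbon receptor targets outside the P450 families only 2 were tested. Of these 1 rose and 0 fell in wild type, and 2 rose and 0 fell in mcad-/- mice. Cyp1a2, the tested member driven by that receptor, fell in both genotypes. All 8 tested members known as pericentral fell in both genotypes. Of 12 other pericentral markers 8 fell and 2 rose in wild type and 10 fell and 2 rose in mcad-/- mice, and of 13 periportal markers 9 fell and 0 rose, and 10 fell and 1 rose. P450 genes of the other families, of which 9 of 17 were tested, had 4 falls and 2 rises in wild type and 5 falls and 3 rises in mcad-/- mice.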

How the data were processed

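Liver RNA was isolated with TRI reagent and purified on RNeasy columns, per the labels' protocols, and each of 20 biotin-labelled Affymetrix arrays was summarised to an intensity per probe set by the authors with GCRMA, per the submitters' processing notes. GCRMA as published corrects background by probe sequence and applies quantile normalization, which pulls overall array brightness together. Neither its version nor whether all arrays were run as a single batch is stated in the labels. The deposited intensity was linear, so log2 was taken with no pseudocount. Of 45101 probe sets 34945 had 1 gene symbol, 932 had several and were left unnamed, and 64 controls were left out. A gene was its probe set with the highest mean log2 over 20 arrays, tested if above 16 units on at least 5 arrays. limma 3.58.1 in R 4.3.3 fitted 4 groups of 5 together, with Benjamini-Hochberg adjustment over 8774 genes and a threshold of 0.05, after a test on simulated data. Alternatives changed the filter, the gene summary, the scaling, the variance prior, the replicate block, the samples fitted and the fold minimum, and left out each mouse in turn. Promoter windows came from RefSeq on GRCm38.p6 for 43 of 56 members, and their build need not be that of the arrays' annotation. The members and gene lists were chosen with earlier results of these data known. Named in full were, per comparison, the 6 largest rises and falls among members past the threshold without overlap, the members past the interaction threshold, all tested family 1 members and a panel of well-studied members. Up to 3 genes of a list with the smallest adjusted p were named, with Nr1i2, Nr1i3, Ahr, Ppara, Hnf4a and Alas1. Other members are given to complete a subfamily. No probe set with 1 symbol was used for Por. The series' design text calls the 5 mice of a group biological replicates. The number of arrays limits the precision.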

Additional observations from a re-analysis of the deposited data

Results flagged for a closer look

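In 11 of 136 groups of 5 mice a tested member had 1 mouse apart from the other 4, by the ratio of its gap to the group's range, where chance alone flags about 1 in 20 groups. Wild type vehicle mouse 3, one of the mice of high actin ratio, was the low one for 4 members, Cyp2d26 at 2818 units (others 5606 to 6231), Cyp2d9 at 4524 (6004 to 6400), Cyp2c70 at 5068 (6211 to 6588) and Cyp4a31 at 48.9 (77.2 to 85.5). Wild type LPS mouse 4, the other such mouse, was high for Cyp4f13 at 94.0 units (69.2 to 74.0). Wild type vehicle mouse 1 was low for Cyp2a12 at 3646 (3793 to 3828) and for Cyp2c68 at 2577 (3140 to 3386), and wild type LPS mouse 5 was high for Cyp2c54 at 254.8 (172.5 to 190.7). Among mcad-/- LPS mice, mouse 1 was low for Cyp1a2 at 1287 (1686 to 1815), and mouse 3 for Cyp2c70 at 5393 (5948 to 6134) and Cyp2d40 at 14.6 (26.2 to 31.8).

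The fitted LPS response of Cyp2j9 passed the test between the genotypes, at -1.04 on the log2 scale (limma adjusted p = 0.0126), but 3 of its 4 groups lay wholly under 16 units and only mcad-/- vehicle mice, where it was high, brought it past the filter.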

How the results depend on the processing

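No called value of a member reversed its direction in any alternative. Of 4268 single-member values under the alternatives 4189 kept their side of the threshold, 53 lost a call and 26 gained one. For mcad-/- against wild type mice with LPS, 8 members were called, and 4 in a fit of the compared groups alone and 4 at a fold of at least 1.5, which lowered all genes from 1806 to 1100. For the LPS response between genotypes 1 member was called, and 2 under further quantile normalization, 2 with a trended and robust prior and 0 with a filter at 64 units, which removes Cyp2j9 from the test and left 236 of 361 genes. With that filter 8 of 32 members had an unadjusted limma p under 0.05, and 0 had an adjusted p under 0.05. The share of all genes at the unadjusted threshold was not counted, so the 8 are no result about the members. Leaving out single mice gave 1 to 2 members called for the LPS response between genotypes. There were 2 without wild type LPS mouse 3, mcad-/- vehicle mouse 4 or mcad-/- LPS mouse 4. Other counts of members stayed within 1.5 times. Further scaling moved the median of all genes by at most -0.082.

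The replicate numbers of the titles were not used to pair the mice in the main fit. Deviations of same-numbered mice correlated at -0.12 to 0.28 (median 0.018), over 0.1 in 7 of 30 pairs. Those of different-numbered mice correlated at -0.35 to 0.24 (median 0.0015), over 0.1 in 20 of 120 pairs. With the number as a block 2 members were called for the LPS response between genotypes, and 6, 10, 32 and 30 in the other comparisons, against 6, 8, 32 and 30 without it.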
